A study of Mus musculus with 20 samples.

Results

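The genes described here are 10 listed genes of cumulus expansion and ovulation out of 54838 genes in the count files: the EGF-like ligands *Areg*, *Ereg* and *Btc*, their receptor *Egfr*, the matrix genes *Has2*, *Tnfaip6*, *Ptx3* and *Vcan*, the protease *Adamts1* and the transcription factor *Cebpb*. They were taken by name and matched to the Ensembl identifier of each gene. The rule that names them uses no expression value, but they were listed with earlier results of these data known. Messenger RNA of whole ovaries was measured by 3' mRNA-Seq, which reads only the end of a transcript next to the poly(A) tail, in 20 female mice aged about 77 days, with 5 animals in each of 4 groups. The groups were the fertility line FL1 in estrus, the unselected ctrl line (labelled WT) in estrus, FL1 in diestrus and ctrl in diestrus. FL1 was bred over many generations for litter size and weight from the outbred base population that also gave rise to ctrl. There was 1 line of each kind, so effects of selection and other differences between these lines cannot be told apart. No animal carried a transgene or received a treatment. The stage was read from vaginal smears, and fat, tunica albuginea and oviduct were removed from the ovaries, so cumulus-oocyte complexes that had already reached the oviduct were not part of the samples.

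At mid-cycle the surge of luteinizing hormone (LH) acts on mural granulosa cells of the large follicle, which release amphiregulin, epiregulin and betacellulin. These ligands act on the EGF receptor of granulosa and cumulus cells. The cumulus cells then lay a hyaluronan matrix around the oocyte, linked by further proteins, and proteases remodel the matrix and the follicle wall until the follicle ruptures.

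*Adamts1* and *Vcan* were stronger expressed in estrus than in diestrus in both lines, *Adamts1* by 3.36-fold in ctrl and 4.87-fold in FL1 and *Vcan* by 2.13-fold and 2.11-fold. *Tnfaip6* was stronger expressed in estrus in FL1, by 2.92-fold. In ctrl its fold was 3.18, which did not pass the test and was smaller without replicate 5 in estrus. Its stage difference was thus not shown to be particular to FL1. *Areg* and *Has2* had at most 3 and 7 counts in a library. Between FL1 and ctrl, 0 of the 8 genes tested were differentially expressed in estrus, where 2.33% of all genes were. In diestrus it was 0 of the 7 genes tested, where 4.11% of all genes were. These shares are low, so 0 is no result particular to these genes. A gene counts as differentially expressed at an adjusted p of at most 0.05 (edgeR's quasi-likelihood test with Benjamini-Hochberg adjustment over all genes tested), values of single libraries are normalized read counts on a common scale (CPM), and log2FC is the fitted log2 fold change.

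The libraries held 5991223 to 10352718 counts. The library of ctrl replicate 5 in estrus stood apart from its group, with a median correlation of 0.938 with its group against 0.960 to 0.965 in the other 4. In diestrus, ctrl replicates 1 and 5 had 127 and 81.6 CPM of *Lhcgr*, the LH receptor, against 243 to 358 CPM in the other 3. Results below that depend on these libraries are given with and without them. Leaving out ctrl replicates 1 and 5 in diestrus together was added after the data had been seen. The labels name no batch. In a whole ovary, fewer cells of a type and less RNA per cell cannot be told apart.

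**Figure D1:**
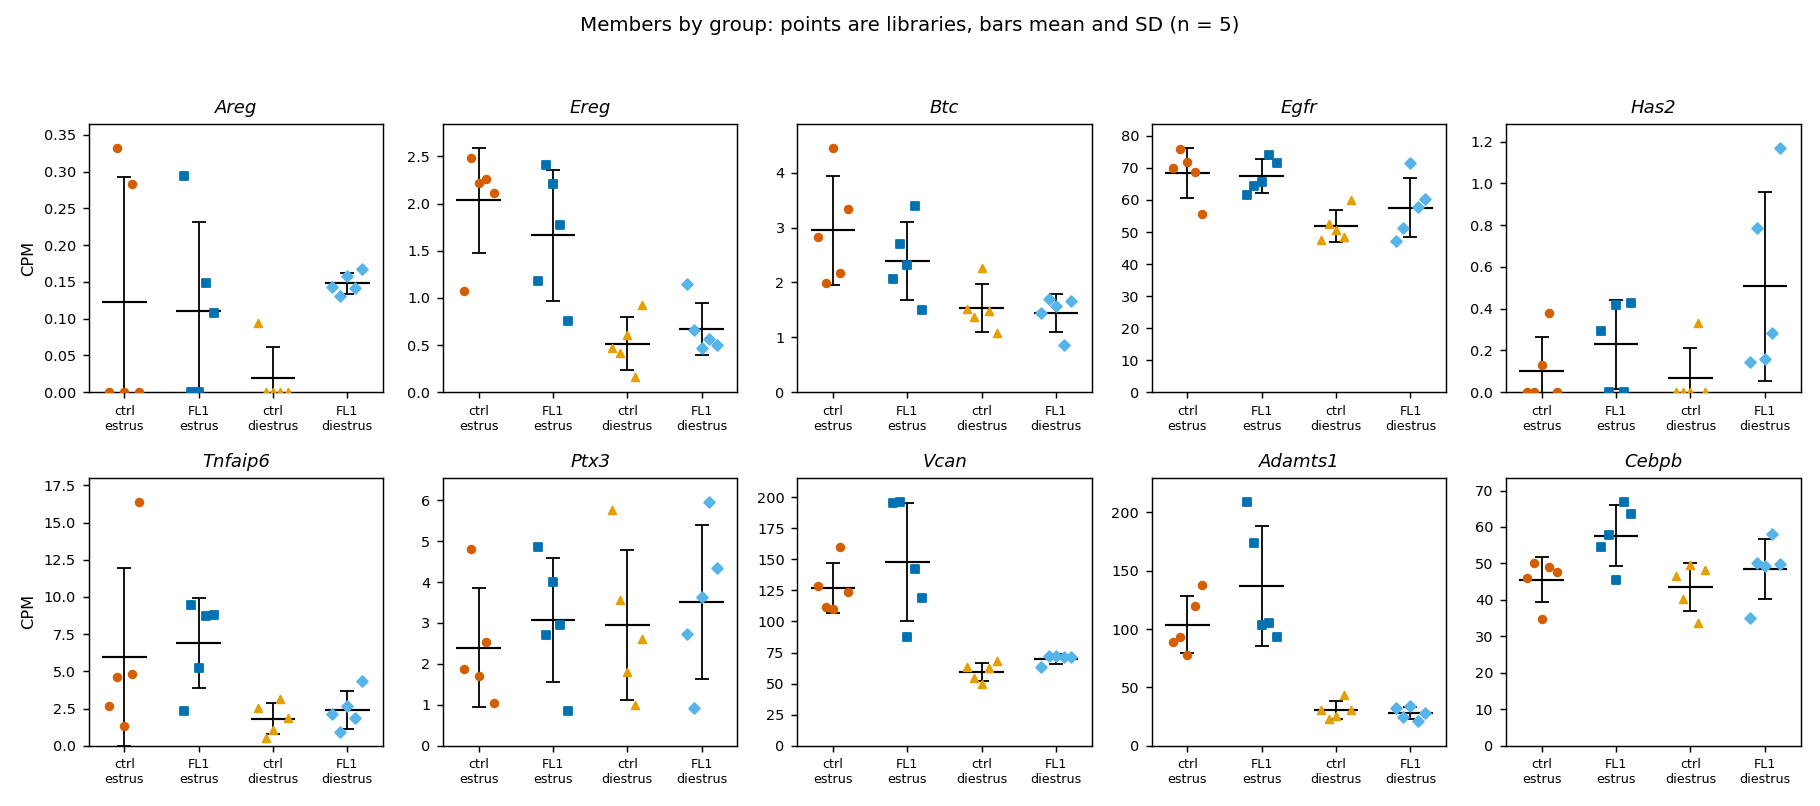
CPM (linear axis from 0) of each of the 10 genes in the 20 libraries, by group. Points are libraries, lines and bars are the mean and SD of 5 libraries. The estrus libraries of *Adamts1* (77.5 to 209 CPM) and *Vcan* (87.2 to 196 CPM) lie above all diestrus libraries, while *Areg* is at most 0.332 CPM.

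The 3 ligand genes lie close together on chromosome 5 (GRCm38), *Ereg* (ENSMUSG00000029377) at 91074622 to 91093646, *Areg* (ENSMUSG00000029378) at 91139599 to 91148432, both on the plus strand, and *Btc* (ENSMUSG00000082361) at 91357261 to 91402994 on the minus strand. The neighbouring ligand gene *Epgn* had 6 counts in all 20 libraries together. *Areg*, which encodes amphiregulin, had 15 counts over the 20 libraries and 0 counts in 9 of them. Its counts were 0, 2, 0, 3 and 0 in ctrl in estrus, 2, 0, 0, 1 and 1 in FL1 in estrus, 1, 0, 0, 0 and 0 in ctrl in diestrus and 1 in each of the 5 FL1 libraries in diestrus. No library was above 3 counts, the limit below which a count was not told from 0, so no difference in *Areg* was detectable at this depth, and the gene was too low to be tested.

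*Ereg*, which encodes epiregulin, had 182 counts in all. In ctrl it measured 1.07, 2.49, 2.22, 2.26 and 2.11 CPM in estrus and 0.473, 0.411, 0.602, 0.165 and 0.924 CPM in diestrus. In FL1 it measured 1.18, 2.41, 2.21, 1.78 and 0.750 CPM in estrus and 1.15, 0.655, 0.473, 0.567 and 0.501 CPM in diestrus. The stages did not overlap in ctrl, and in FL1 the lowest estrus library lay below the highest diestrus library. *Ereg* was too low for the main test between the stages within either line, and when all genes with at least 1 count were tested in edgeR it did not pass (log2FC 1.94, SE 0.60, adjusted p = 0.115 in ctrl and 1.27, SE 0.64, adjusted p = 0.237 in FL1). DESeq2, an alternative without that filter, gave adjusted p = 0.0171 in ctrl and 0.117 in FL1, so the outcome in ctrl depended on the method. It passed the filter on low counts between the lines in estrus, where log2FC was -0.29 (SE 0.39, adjusted p = 0.780).

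*Btc*, the gene of betacellulin, was measured at 1.99 to 4.45 CPM in ctrl and 1.5 to 3.40 CPM in FL1 in estrus, and at 1.08 to 2.26 CPM in ctrl and 0.851 to 1.70 CPM in FL1 in diestrus. The stages overlapped in each line. Estrus against diestrus gave a log2FC of 0.93 (SE 0.35, adjusted p = 0.202) in ctrl and 0.71 (SE 0.36, adjusted p = 0.196) in FL1, neither of which passed the threshold.

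The receptor gene *Egfr* (chromosome 11, 16752203 to 16918158) was measured at 70.0, 76.0, 71.9, 68.7 and 55.5 CPM in ctrl in estrus and at 47.5, 52.5, 50.6, 48.5 and 60.1 CPM in ctrl in diestrus. In FL1 it was measured at 61.5 to 74.0 CPM in estrus and 47.3 to 71.5 CPM in diestrus. In ctrl, 4 of the 5 estrus libraries lay above all diestrus libraries, and the exception was replicate 5, the library that stood apart. The log2FC between the stages was 0.40 (SE 0.11, adjusted p = 0.0737) in ctrl and 0.23 (SE 0.11, adjusted p = 0.171) in FL1. Without ctrl replicate 5 in estrus the value in ctrl was 0.46 (SE 0.096) and passed the test (adjusted p = 0.0203). That fit leaves out the lowest estrus library itself, so its value is a description only. Without ctrl replicates 1 and 5 in diestrus the value in ctrl was 0.43 (SE 0.13) and did not pass (adjusted p = 0.109).

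Among the matrix genes, *Has2* (chromosome 15, 56665627 to 56694539), the synthase that makes the hyaluronan of the cumulus matrix, was at the limit of detection. It had 34 counts over the 20 libraries and 0 counts in 9 of them, with 0 to 4 counts per library in ctrl in estrus, 0 to 4 in FL1 in estrus, 0 to 2 in ctrl in diestrus and 1 to 7 in FL1 in diestrus. The 5 FL1 libraries in diestrus had 1, 6, 1, 2 and 7 counts, and 4 of the 5 ctrl libraries in diestrus had 0. The gene was too low for the main test, and when all genes with at least 1 count were tested it did not pass (adjusted p = 0.324 for FL1 against ctrl in diestrus).

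*Tnfaip6* (chromosome 2, 52038009 to 52056686), whose protein transfers the heavy chains of inter-alpha-inhibitor to hyaluronan, was measured at 2.36, 9.47, 5.25, 8.73 and 8.79 CPM in FL1 in estrus and at 2.15, 0.917, 2.68, 1.84 and 4.34 CPM in FL1 in diestrus. In ctrl it was measured at 2.69, 4.64, 1.31, 4.81 and 16.4 CPM in estrus and at 2.55, 0.548, 1.05, 3.13 and 1.85 CPM in diestrus. In FL1, 4 of the 5 estrus libraries lay above all diestrus libraries, and in ctrl the highest value came from replicate 5 in estrus. The log2FC between the stages was 1.55 (SE 0.41, adjusted p = 0.0168) in FL1. In ctrl it was 1.67 (SE 0.62, adjusted p = 0.195), and 0.87 (SE 0.51, adjusted p = 0.415) without replicate 5 in estrus.

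*Ptx3* (chromosome 3, 66219910 to 66225805), which encodes a pentraxin that organizes the matrix, spread widely within each group, from 1.06 to 4.81 CPM in ctrl and 0.857 to 4.86 CPM in FL1 in estrus and from 0.989 to 5.77 CPM in ctrl and 0.917 to 5.96 CPM in FL1 in diestrus. All 4 groups overlapped. The log2FC between the stages was -0.33 (SE 0.49, adjusted p = 0.815) in ctrl and -0.20 (SE 0.46, adjusted p = 0.821) in FL1, with 95% confidence intervals from -1.39 to 0.72 and from -1.18 to 0.79.

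*Vcan* (chromosome 13, 89655312 to 89742509, minus strand) encodes versican, a proteoglycan that binds hyaluronan and is cut by ADAMTS1. In ctrl it was measured at 129, 111, 110, 160 and 124 CPM in estrus and at 63.2, 54.3, 49.4, 62.3 and 68.1 CPM in diestrus. In FL1 it was measured at 195, 196, 87.2, 142 and 119 CPM in estrus and at 63.1, 71.8, 71.9, 71.2 and 71.1 CPM in diestrus. The stages did not overlap in either line. The log2FC was 1.09 (SE 0.13, adjusted p = 0.000725) in ctrl and 1.08 (SE 0.17, adjusted p = 0.000456) in FL1. FL1 in estrus was the most spread group of *Vcan* (SD 47.7 CPM), and FL1 in diestrus the tightest (SD 3.77 CPM).

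*Adamts1* (chromosome 16, 85793827 to 85803113, minus strand), a secreted metalloprotease needed for normal ovulation, had the largest log2FC between the stages of the 7 genes tested in each line. In ctrl it was measured at 89.3, 93.5, 77.5, 120.0 and 137 CPM in estrus and at 30.9, 22.9, 25.7, 43.3 and 30.8 CPM in diestrus. In FL1 it was measured at 209, 174, 103, 105 and 93.3 CPM in estrus and at 32.7, 24.5, 34.2, 21.1 and 27.7 CPM in diestrus. The stages were far apart in both lines, and the 2 highest libraries were FL1 replicates 1 and 2 in estrus. The log2FC was 1.75 (SE 0.19, adjusted p = 0.000483) in ctrl and 2.28 (SE 0.22, adjusted p = 2.76e-06) in FL1. The difference between these values did not pass the interaction test (log2FC 0.53, SE 0.31, 95% confidence interval -0.11 to 1.17, adjusted p = 0.514). Without ctrl replicate 5 in estrus it was 0.65 (SE 0.31, adjusted p = 0.374) and did not pass either.

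Over the 20 libraries, log2 CPM of *Adamts1* and *Vcan* had a Pearson correlation of 0.93, and of 0.65 once each group's mean was taken out. These libraries share the stage difference of both genes. In the plot of one gene against the other the stages form separate clouds, and FL1 replicates 1 and 2 in estrus are at the top in both genes. Within groups, the next highest value among the 8 genes with enough counts was 0.36, for *Tnfaip6* and *Adamts1*.

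**Figure D2:**
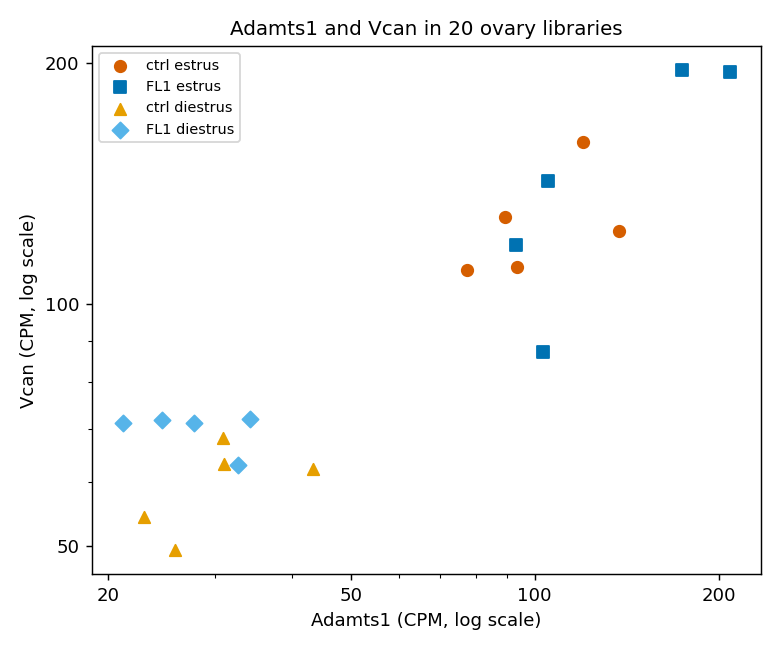
CPM of *Vcan* against CPM of *Adamts1* in the 20 libraries, both axes on a log scale, with 1 point per library and 1 symbol per group. The 10 estrus libraries start at 77.5 CPM of *Adamts1* and 87.2 CPM of *Vcan*, and the 10 diestrus libraries reach at most 43.3 and 71.9 CPM.

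The 250 bases before the transcription start of *Adamts1* and *Vcan*, the genes that differed between the stages in both lines, are printed 5′ to 3′ in the direction of the gene. *Areg* is added as the gene with the complete cAMP response element, a sequence bound by factors that act below the LH receptor. The sequences are from RefSeq (GRCm38.p6), which gave a promoter for 8 of the 10 genes, all but *Ereg* and *Has2*. The regions are chr16:85803114-85803363 for *Adamts1* and chr13:89742513-89742762 for *Vcan*, both on the minus strand, and chr5:91139349-91139598 for *Areg*, on the plus strand. Capitals mark matches, on either strand, to the cAMP response element TGACGTCA, to its short form TGACG (which lies inside TGACGTCA), to the AP-1 motif TGANTCA and to the GC box GGGCGG.
Adamts1: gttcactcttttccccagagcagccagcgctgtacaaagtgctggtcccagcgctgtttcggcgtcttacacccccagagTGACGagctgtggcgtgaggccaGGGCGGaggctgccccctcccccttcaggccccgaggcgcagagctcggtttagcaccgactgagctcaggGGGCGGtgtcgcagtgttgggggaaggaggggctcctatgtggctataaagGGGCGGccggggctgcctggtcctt
Vcan: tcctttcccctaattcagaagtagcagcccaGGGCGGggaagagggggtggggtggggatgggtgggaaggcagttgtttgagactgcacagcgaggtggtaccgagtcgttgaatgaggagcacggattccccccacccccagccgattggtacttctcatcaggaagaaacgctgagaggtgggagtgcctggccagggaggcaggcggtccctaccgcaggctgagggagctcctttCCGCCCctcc
Areg: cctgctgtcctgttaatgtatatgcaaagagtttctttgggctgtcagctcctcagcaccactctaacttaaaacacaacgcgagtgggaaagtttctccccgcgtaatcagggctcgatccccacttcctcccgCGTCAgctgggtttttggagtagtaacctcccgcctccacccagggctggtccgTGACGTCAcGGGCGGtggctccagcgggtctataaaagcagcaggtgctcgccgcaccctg

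*Adamts1* had 1 short cAMP response element, from -170 to -166 of the start, and 3 GC boxes. *Vcan* had 2 GC boxes and none of the other motifs in this window. *Tnfaip6* had 1 AP-1 motif, from -142 to -136, and 1 GC box, counted from a RefSeq start that lies inside the gene as GENCODE places it, so its window is not printed, and *Areg* had TGACGTCA from -61 to -54. Of the other promoters, those of *Btc* and *Cebpb* held 1 and 3 short cAMP response elements, those of *Egfr* and *Cebpb* held 1 and 5 GC boxes, and that of *Ptx3* held none of these letters. Among all 32817 promoters of the same length, 1.55% held TGACGTCA, 17.7% TGACG, 6.75% TGANTCA and 32.7% GGGCGG. These matches describe letters only.

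*Cebpb* (chromosome 2, 167688915 to 167690418), a transcription factor induced by LH in granulosa cells, did not pass the test between the stages in either line. It was measured at 34.8 to 50.1 CPM in ctrl and 45.4 to 66.9 CPM in FL1 in estrus, and at 33.8 to 49.5 CPM in ctrl and 35.1 to 58.2 CPM in FL1 in diestrus. The log2FC between the stages was 0.06 (SE 0.14, adjusted p = 0.899) in ctrl and 0.25 (SE 0.13, adjusted p = 0.220) in FL1. *Tmem189* overlaps *Cebpb* on the opposite strand and had 3380 counts in all. The strand setting of the counting is not given in the sources used here, so reads of both genes may not have been told apart. The genes that overlap *Ereg*, *Egfr*, *Has2*, *Ptx3* and *Vcan* on the opposite strand had 0 to 182 counts each over the 20 libraries. Of these, *Has2os* had 22 counts beside 34 of *Has2*, and *Veph1* had 101 beside 445 of *Ptx3*. The same limit therefore holds for *Has2* and *Ptx3*.

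In ctrl, 2 of the 7 genes tested were stronger expressed in estrus and none was weaker expressed, where 2.85% of all 13334 genes tested differed in either direction and 1.78% were stronger expressed in estrus. *Adamts1* and *Vcan* were also the genes tested whose stages did not overlap, against 4.51% of all genes. In FL1, 3 of 7 were stronger expressed in estrus and none was weaker expressed, where 15.9% of all 13350 genes tested differed and 7.42% were stronger expressed in estrus. Groups that did not overlap were seen in 2 of 7 genes against 12.2% of all. The median log2FC of the 7 genes was 0.93 in ctrl and 0.71 in FL1, beside medians of -0.0058 and 0.0071 over all genes tested. In both lines this median is the value of *Btc*, which passed in neither, so it is a description only. Without ctrl replicates 1 and 5 in diestrus, *Adamts1* (log2FC 1.75, adjusted p = 0.00387) and *Vcan* (1.19, adjusted p = 0.00194) still passed in ctrl. *Areg*, *Has2* and *Ereg* were not among the genes tested.

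A fit of all 20 libraries with the line as a covariate, which was added after the data had been seen, raised the number of libraries per stage to 10. In it 14.8% of 14154 genes differed between the stages and 7.74% were stronger expressed in estrus. The genes stronger expressed in estrus were *Adamts1* (log2FC 2.02), *Vcan* (1.09), *Tnfaip6* (1.61, SE 0.39, adjusted p = 0.00602), *Btc* (0.82, SE 0.24, adjusted p = 0.0187) and *Egfr* (0.31, SE 0.078, adjusted p = 0.00735). *Ptx3* (-0.26, SE 0.35) and *Cebpb* (0.15, SE 0.10) did not pass. Without ctrl replicates 1 and 5 in diestrus, *Btc* no longer passed (log2FC 0.75, adjusted p = 0.0614). *Ereg* had a log2FC of 1.61 (SE 0.32, adjusted p = 0.00108), but it entered this test because of its estrus libraries, so that value is a description and no support for a difference. *Areg* and *Has2* were too low.

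**Figure D3:**
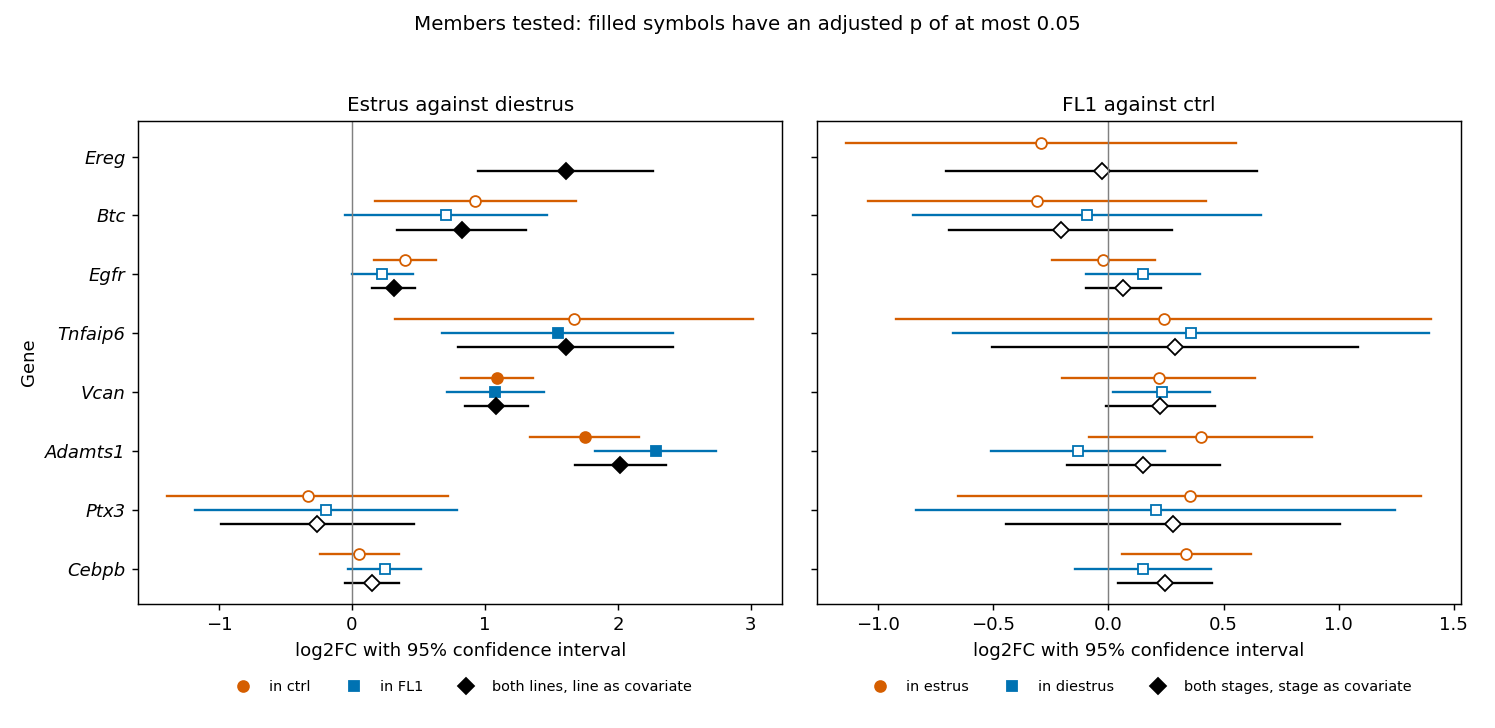
log2FC of the 8 genes that could be tested, with 95% confidence intervals, for estrus against diestrus (left) and FL1 against ctrl (right). Filled symbols have an adjusted p of at most 0.05. On the left *Adamts1* and *Vcan* are filled in both lines and *Tnfaip6* in FL1. On the right no symbol is filled.

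Between the lines, 0 of 8 genes differed in estrus, where 2.33% of 13374 genes did, and 0 of 7 in diestrus, where 4.11% of 13259 genes did. DESeq2 and limma-voom likewise called 0 of them in both stages. None had groups that did not overlap, against 4.88% of all genes in estrus and 5.45% in diestrus. At an unadjusted p under 0.05 there was 1 gene in each stage in the main tests. In estrus it was *Cebpb*, with a mean of 57.6 ± 8.38 CPM (SD, n = 5) in FL1 and 45.5 ± 6.19 CPM in ctrl (log2FC 0.34, SE 0.13, adjusted p = 0.215). In diestrus it was *Vcan*, with 69.8 ± 3.77 CPM in FL1 and 59.4 ± 7.50 CPM in ctrl (log2FC 0.23, SE 0.098, adjusted p = 0.233), and without ctrl replicates 1 and 5 its log2FC was 0.34 (SE 0.11, adjusted p = 0.0990). *Adamts1* in estrus had a mean of 137 ± 51.5 CPM in FL1 and 104 ± 24.5 CPM in ctrl (log2FC 0.40, SE 0.23, adjusted p = 0.418), with a 95% confidence interval from -0.083 to 0.88. For *Tnfaip6* in estrus the log2FC was 0.24 (SE 0.54, adjusted p = 0.879), and 1.04 (SE 0.43, adjusted p = 0.231) without ctrl replicate 5. Without that library *Adamts1*, *Tnfaip6* and *Cebpb* each had an unadjusted p under 0.05 in estrus, and none passed. It was the highest library of its group for *Tnfaip6* (16.4 CPM) and *Adamts1* (137 CPM). Leaving it out raises FL1 over ctrl for these genes, so the values without it are descriptions only.

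With the stage as a covariate over all 20 libraries, again added after the data had been seen, 6.74% of genes differed between the lines and 0 of the 8 genes did. The smallest adjusted p was that of *Cebpb* (log2FC 0.25, SE 0.098, adjusted p = 0.151). The intervals still allow for changes of some size. For *Egfr* the 95% confidence interval of FL1 against ctrl was -0.24 to 0.20 in estrus, and for *Tnfaip6* it was -0.92 to 1.40. In the line-by-stage interaction 0.0565% of genes passed, and 0 of the 8 genes did, in the main test also at an unadjusted p under 0.05. Without ctrl replicate 5 in estrus, *Adamts1* was under 0.05 unadjusted in this test and did not pass (adjusted p = 0.374). That library was the highest of its group for *Adamts1*, so this value is a description only.

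The genes around these in the same pathways were described from lists. Shares over all genes stand beside their counts. Of 14 further genes of the EGF receptor network, 10 were tested, and within the lines none was stronger expressed in estrus (1.78% of all genes in ctrl and 7.42% in FL1). In the fit over both lines 2 of them were stronger, *Erbb2* (log2FC 0.38) and *Lrig1* (0.50), and 1 was weaker expressed in estrus (7.74% of all genes stronger, 14.8% in either direction). *Hbegf*, another EGF-like ligand, was weaker expressed in estrus in ctrl (log2FC -0.94, SE 0.22, adjusted p = 0.0390), but did not pass without ctrl replicates 1 and 5 in diestrus (-0.74, SE 0.26, adjusted p = 0.173). Between the lines in diestrus, 2 of the 10 were stronger expressed in FL1 (4.11% of all genes in either direction). They were *Tgfa*, which encodes transforming growth factor alpha, and *Adam17*, the protease that sheds these ligands from the cell surface. *Tgfa* measured 25.2 to 28.4 CPM in FL1 and 16.8 to 20.9 CPM in ctrl in diestrus, without overlap (log2FC 0.57, SE 0.11, adjusted p = 0.0102, and 0.0297 without ctrl replicates 1 and 5). *Adam17* had a mean of 94.4 ± 4.65 CPM in FL1 and 72.9 ± 9.76 CPM in ctrl (log2FC 0.37, SE 0.096, adjusted p = 0.0437), and did not pass without ctrl replicates 1 and 5 (0.32, SE 0.11, adjusted p = 0.133). The list's median log2FC in diestrus was -0.076, beside -0.0093 over all genes.

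Of 18 further genes of the hyaluronan matrix, 14 were tested between the stages. In FL1, 3 were stronger and 1 was weaker expressed in estrus (15.9% of all genes in either direction), and in ctrl 0 were stronger and 3 were weaker expressed (2.85%). In the fit over both lines 4 of 15 were stronger, *Adamts9* (log2FC 0.31) among them, and 3 weaker expressed (14.8%). The list's median log2FC was -0.091 in ctrl and -0.12 in FL1. *Adamts4*, a protease of the family of *Adamts1* that also cuts versican, had a log2FC of 1.68 (SE 0.28, adjusted p = 0.000588) in FL1 and 1.19 (SE 0.39, adjusted p = 0.139) in ctrl (0.88, adjusted p = 0.224, without ctrl replicate 5 in estrus). *Fn1*, the gene of fibronectin, had 0.94 (SE 0.13, adjusted p = 0.000106) and 0.75 (SE 0.20, adjusted p = 0.0672), and *Cd44*, the hyaluronan receptor, had 0.80 (SE 0.20, adjusted p = 0.0118) and 0.83 (SE 0.24, adjusted p = 0.0841). Without ctrl replicates 1 and 5 in diestrus, *Fn1* (log2FC 0.98, adjusted p = 0.0357) and *Cd44* (1.11, adjusted p = 0.0217) passed in ctrl as well, and *Adamts4* did not (1.48, adjusted p = 0.111). Replicate 1 was the highest ctrl library in diestrus for *Fn1* (63.5 CPM) and *Cd44* (28.5 CPM), so these values are descriptions only. In the other direction, *Itih5* was weaker expressed in estrus in FL1 (log2FC -0.91, SE 0.14, adjusted p = 0.000381) and in ctrl (-0.62, SE 0.13, adjusted p = 0.0217). *Adamts5*, a further versican-cutting protease, was weaker expressed in estrus in ctrl (-1.30, SE 0.22, adjusted p = 0.00739) and *Ctsl* likewise (-0.66, SE 0.16, adjusted p = 0.0394). In the line-by-stage interaction none of the list passed.

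Of 20 further genes of the response to the LH surge, 17 were tested between the stages, with 1 stronger and 1 weaker expressed in estrus in ctrl (2.85% of all genes in either direction) and 4 stronger and 4 weaker in FL1 (15.9%). In the fit over both lines 3 were stronger and 4 weaker expressed, *Ptger4* (log2FC -0.58) among the latter (14.8%). *Sphk1*, a sphingosine kinase, was measured at 9.13 to 16.2 CPM in ctrl and 11.8 to 19.0 CPM in FL1 in estrus and at 4.97 to 6.31 CPM and 3.00 to 7.01 CPM in diestrus, without overlap (log2FC 1.27 in ctrl, adjusted p = 0.00542, and 1.66 in FL1, adjusted p = 0.000118). *Runx1*, a transcription factor of the periovulatory follicle, had a log2FC of 1.12 (SE 0.10, adjusted p = 2.63e-06) in FL1 and 0.91 (SE 0.31, adjusted p = 0.155) in ctrl, where diestrus replicate 5 measured 82.6 CPM and the other 4 measured 24.2 to 37.3 CPM. Without ctrl replicates 1 and 5 in diestrus *Runx1* passed in ctrl (log2FC 1.35, SE 0.27, adjusted p = 0.0204). That fit leaves out the high library itself, so its value is a description only. *Ptger2*, a prostaglandin E2 receptor, and *Edn2*, a vasoconstrictor peptide made at ovulation, were the others of the 4 counted as stronger in FL1 (log2FC 0.58 and 2.23). *Edn2* measured 2.42 to 15.6 CPM in FL1 in estrus and 0.142 to 6.55 CPM in FL1 in diestrus, with overlap. It entered this test because of its estrus libraries, so its value is a description and no support for a difference. *Lhcgr* was weaker expressed in estrus in both lines (log2FC -1.75, SE 0.34, adjusted p = 0.0161 in ctrl and -2.64, SE 0.18, adjusted p = 6.30e-08 in FL1). *Runx2*, *Nrip1* and *Ptges* were the other genes weaker expressed in estrus in FL1 (log2FC -1.15, -0.45 and -0.73). *Ptgs2*, the cyclooxygenase of the ovulatory follicle, was at 0.0946 to 3.11 CPM over all libraries, and *Pgr*, the progesterone receptor, at 1.63 to 6.93 CPM. Between the lines in diestrus *Lhcgr* (log2FC 1.43, adjusted p = 0.0209) and *Ptges* (0.71, adjusted p = 0.0179) were stronger expressed in FL1 (4.11% of all genes in either direction), and without ctrl replicates 1 and 5 the adjusted p of *Ptges* was 0.0491. These replicates were set apart by their low *Lhcgr*, so no test of *Lhcgr* without them is given.

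**Figure D4:**
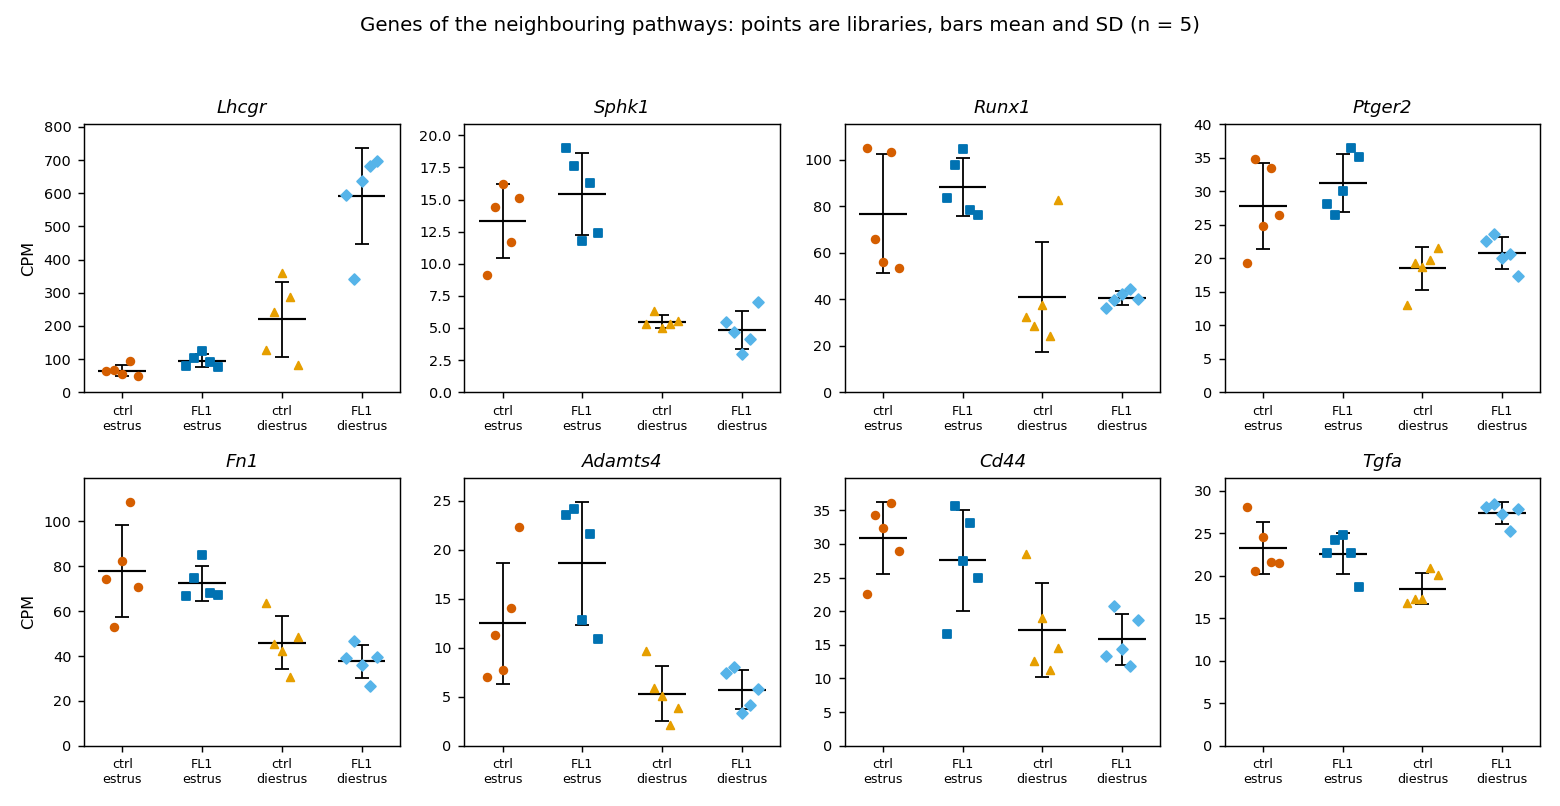
CPM (linear axis from 0) of 8 genes of the LH response, the hyaluronan matrix and the EGF receptor network in the 20 libraries, by group. Points are libraries, lines and bars are the mean and SD of 5 libraries. *Sphk1* is at least 9.13 CPM in the estrus libraries and at most 7.01 CPM in the diestrus libraries, and *Lhcgr* is highest in FL1 in diestrus (342 to 697 CPM).

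Of 8 genes of the signal from the oocyte to the cumulus, all were tested. *Bmp15*, an oocyte factor, was stronger expressed in estrus in FL1 (log2FC 0.81, SE 0.24, adjusted p = 0.0279). All 9 oocyte markers, *Bmp15* among them, had a positive log2FC there (median 0.36), and 1 of them passed. *Tgfbr1* (-0.90, SE 0.12, adjusted p = 8.34e-05) and *Smad3* (-0.26) were weaker expressed in estrus in FL1 (15.9% of all genes in either direction). In ctrl 0 of the 8 passed (2.85%), with 2 at an unadjusted p under 0.05. In the fit over both lines *Tgfbr1* and *Bmpr2* (log2FC -0.43) were weaker expressed in estrus (14.8% of all genes in either direction). Between the lines, 1 of the 8 was stronger expressed in FL1 in each stage, in estrus *Smad4* (log2FC 0.44, SE 0.10, adjusted p = 0.0412) and in diestrus *Tgfbr1* (0.74, SE 0.13, adjusted p = 0.00487), both without overlap (2.33% and 4.11% of all genes). Of 15 immediate early genes, which rise shortly after many stimuli, 14 were tested between the stages in each line. None was stronger expressed in estrus. In FL1 5 were weaker expressed in estrus (15.9% of all genes in either direction), *Egr1* (log2FC -0.74), *Dusp1* (-0.96), *Junb* (-0.71), *Klf6* (-0.61) and *Jun* (-0.44). In ctrl 0 passed (2.85%), with 4 at an unadjusted p under 0.05. In the fit over both lines 5 of 15 were weaker expressed in estrus (14.8% of all genes in either direction), *Fos* (-0.95) and *Klf4* (-0.52) among them.

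The makeup of the ovary in marker genes also differed between the stages. In the fit over both lines (14.8% of all genes in either direction), 6 of 8 luteal markers were weaker and 1 was stronger expressed in estrus. Their summed level was 11026 to 38376 CPM in ctrl and 15606 to 32939 CPM in FL1 in estrus and 28171 to 49001 CPM and 31724 to 42447 CPM in diestrus. Of 10 granulosa cell markers, 3 of 9 tested were weaker expressed in estrus, with sums of 1366 to 3605 CPM and 2815 to 4531 CPM in estrus and 2960 to 4488 CPM and 3024 to 4740 CPM in diestrus. All 5 smooth muscle markers were stronger expressed in estrus (sums of 1176 to 1617 CPM and 1175 to 1539 CPM in estrus, 712 to 1294 CPM and 822 to 1351 CPM in diestrus), and of the 9 oocyte markers none passed. Of the other markers, 4 of 5 of red blood cells and 3 of 4 of endothelium were weaker expressed in estrus, 1 of 6 of the surface epithelium (*Krt19*), 1 of 6 of fat cells (*Car3*) and 1 of 5 of macrophages (*Cd68*) were stronger expressed, and of 4 theca cell markers *Cyp17a1* was weaker expressed (log2FC -4.42). The theca cell gene *Insl3* was at 0 in all FL1 libraries and the neutrophil gene *Ly6g* in all libraries, and none of the 2 neutrophil and 1 oviduct markers tested passed. Within the lines, several marker lists had more calls in FL1 (15.9% of all genes in either direction) than in ctrl (2.85%). Weaker expressed in estrus were 3 of 4 endothelium markers in FL1 and 0 in ctrl. For red blood cells it was 4 of 5 and 0, and for luteal cells 6 of 8 and 1. In the interaction 0 of the 4 endothelium markers passed, with 3 at an unadjusted p under 0.05. Of the surface epithelium markers, 5 of 6 were stronger expressed in estrus in FL1 (*Krt7*, *Krt19*, *Upk3b*, *Upk1b* and *Lgals7*, median log2FC of the 6 markers 1.17), where 7.42% of all genes were. In ctrl 0 passed (2.85% of all genes in either direction), with 0 at an unadjusted p under 0.05. In the interaction 0 of the 6 passed (0.0565% of all genes), with 5 at an unadjusted p under 0.05. Their sums were 91.3 to 102 CPM in ctrl and 112 to 204 CPM in FL1 in estrus, and 66.1 to 143 CPM and 59.6 to 94.6 CPM in diestrus. The part of these markers in the stage differences of *Adamts1*, *Vcan* and *Tnfaip6* was not tested. Between the lines, the macrophage marker *Lyz2* (adjusted p = 0.0107) and the surface epithelium marker *Upk3b* (0.69, adjusted p = 0.0468) were stronger expressed in FL1 in estrus (2.33% of all genes in either direction). In diestrus 2 of 5 macrophage markers (*Lyz2*, log2FC 1.31, and *Cd68*, 0.79), 1 of 9 granulosa cell markers tested (*Foxl2*, 0.53), 1 of 5 red blood cell markers (*Hba-a2*, 4.77) and, of the luteal markers, *Lhcgr* were stronger expressed in FL1, and 1 of 6 surface epithelium markers (*Upk1b*, -2.33) was weaker expressed (4.11% of all genes in either direction). The macrophage markers *Csf1r* (log2FC -0.61 in estrus and -0.54 in diestrus), *Adgre1* (-0.42 and -0.37) and *Mrc1* (-0.34 and -0.36) went the other way and did not pass. With the stage as a covariate, 2 of the 5 macrophage markers were stronger and 1 was weaker expressed in FL1 (6.74% of all genes in either direction). The 5 summed to 132 to 254 CPM in ctrl and 175 to 492 CPM in FL1 in diestrus. The part of these markers in the line differences of *Tgfa*, *Adam17*, *Ptges* and *Tgfbr1* was not tested. The oviduct markers summed to 9.13 to 20.7 CPM over all libraries, and the oviduct secretory gene *Ovgp1* had a mean of 0.583 CPM in ctrl in estrus.

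Over 14154 genes and 20 libraries, the genes whose log2 CPM followed *Adamts1* most closely were *3425401B19Rik* (Pearson r 0.96), *Ptprn* (0.94) and *Ermp1* (0.93), and those nearest to *Vcan* were *Ptprn* (0.91), *Clip3* (0.90) and *3425401B19Rik* (0.90). Within groups these correlations were 0.41 to 0.65. *Ptprn* was measured at 4.41 to 11.9 CPM in the 10 estrus libraries and at most 0.717 CPM in the 10 diestrus libraries. *Ptprn* and *3425401B19Rik* were too low for the test between the lines in diestrus. They entered this search because of their estrus libraries, so their correlations are descriptions and no support for a link. The genes nearest to *Tnfaip6* were *Nags* (0.84), *Sfxn1* (0.81) and *Asgr1* (0.80), with 0.63 to 0.74 within groups. These libraries share the stage difference, so the values describe a like pattern.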

How the data were processed

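Ovaries of 20 mice were sequenced, 1 library per animal. The authors prepared QuantSeq 3' mRNA-Seq forward libraries, used STAR to map the trimmed reads to GRCm38, and deposited raw counts of uniquely assigned reads per Ensembl gene, without normalization or pooling. The submitters' processing notes name STAR, Cuffdiff and GRCm38, and the counting tool and its strand setting are not given in the sources used here. A variant between a line and the reference can move reads between similar genes.

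Groups came from titles and characteristics in the labels. The source name reads FL1 for ctrl libraries too and was not used. Replicate numbers name different animals. No pair of libraries agreed within sampling noise (chi-square per gene 6.32 to 46.6 in 40 pairs within groups). Everything else was computed here from the deposited counts. Symbols and positions came from GENCODE M21 (54809 of 54838 genes). Low genes were filtered by filterByExpr (minimum count 10), and counts were normalized by TMM and tested with edgeR 4.0.16 (glmQLFit, glmQLFTest; R 4.3.3), with Benjamini-Hochberg adjustment over all genes tested and a threshold of 0.05. Stage and line were compared in the 10 libraries concerned, and the interaction in 20. The standard error of log2FC is its absolute value divided by the square root of F. CPM use TMM factors over all libraries, and log2 CPM a prior count of 2. Median depth was 6957533 counts, and a library needed more than 3 counts of a gene for the gene to count as detected. Counts carry counting error beside the spread between animals.

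The 10 genes, the pathway lists and the marker lists were chosen with earlier results of these data known. All 10 genes are named, and of the pathway lists genes that passed a test (at most 6 per list and comparison), of the marker lists those that moved beside a result, and for *Adamts1*, *Vcan* and *Tnfaip6* the 3 genes with the highest Pearson correlation of log2 CPM. *Ptgs2*, *Pgr*, *Insl3*, *Ly6g* and *Ovgp1* were named as defining genes. The test was tried on simulated counts. Alternatives were DESeq2 1.42.0, limma-voom (limma 3.58.1), other normalizations and filters, 1 fit of all 20 libraries, a replicate block and each library left out. Python 3.11.15 with numpy 2.4.6, pandas 2.3.3 and matplotlib 3.10.9 was used for tables and plots. Promoters were searched as 250 bases before the start.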

Additional observations from a re-analysis of the deposited data

Results flagged for a closer look

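In 40 sets of 5 libraries (10 genes in 4 groups), Dixon's test at the 5% level picked out 1 library in 7 of them, and about 1 in 20 sets is expected by chance. *Tnfaip6* measured 16.4 CPM in ctrl replicate 5 in estrus, against 1.31 to 4.81 CPM in the other 4. *Ereg* measured 1.07 CPM in ctrl replicate 1 in estrus, against 2.11 to 2.49 CPM, and 1.15 CPM in FL1 replicate 1 in diestrus, against 0.473 to 0.655 CPM. *Vcan* measured 63.1 CPM in FL1 replicate 1 in diestrus, against 71.1 to 71.9 CPM, and *Cebpb* measured 34.8 CPM in ctrl replicate 3 in estrus, against 46.1 to 50.1 CPM. *Areg* (0.0946 CPM in ctrl replicate 1 in diestrus) and *Has2* (0.330 CPM in ctrl replicate 4 in diestrus) were each the 1 library above 0 in their group, with 1 and 2 counts.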

How the results depend on the processing

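Between the lines and in the interaction, none of the genes tested passed under any alternative run, DESeq2 and each library left out included. *Areg* and *Has2* were too low for the runs with a filter on low counts. In DESeq2 they had no adjusted p between the lines within a stage or in the interaction. In the main tests 2.33% of all genes passed in estrus, 4.11% in diestrus and 0.0565% in the interaction. The numbers of all genes that passed moved more. In estrus it was 311 in the main test, 477 with all genes of at least 1 count, 670 with DESeq2, 531 in the fit of all 20 libraries and 175 to 418 with 1 library left out (fewest without FL1 replicates 1, 2, 4 or 5 in estrus). In diestrus it was 545, then 846 with at least 1 count, 891 with DESeq2 and 349 to 594 with 1 library left out (fewest without FL1 replicate 4). In the interaction it was 8, then 17 with at least 1 count, 148 with DESeq2, 3 with limma-voom, 17 without ctrl replicates 1 and 5 in diestrus (an alternative added after the data had been seen) and 0 to 15 with 1 library left out. The interaction of *Tnfaip6* (-0.12) ranged from -0.38 to 0.67 with 1 library left out, changed sign without ctrl replicate 5 in estrus, and stayed short of the threshold there (adjusted p = 0.733).

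Between the stages in ctrl, *Adamts1* and *Vcan* passed under every alternative. DESeq2 and the fit of all 20 libraries passed 4 of the 10 genes (*Ereg* and *Egfr* in addition, with adjusted p = 0.0171 and 0.0396 in DESeq2), and 2 to 3 passed with 1 library left out, *Ereg* without ctrl replicate 1 in estrus or replicate 5 in diestrus and *Egfr* without ctrl replicate 5 in estrus. In each of these cases the library left out was the gene's lowest in estrus or highest in diestrus, so they are descriptions only. *Ereg* entered the edgeR runs with a filter on low counts through its estrus libraries, and DESeq2 was run without that filter. In edgeR it did not pass when all genes with at least 1 count were tested (adjusted p = 0.115). Of all genes, 380 passed, 771 with DESeq2, 909 in the fit of all 20 libraries and 176 to 516 with 1 library left out (fewest without ctrl replicates 2 or 4 in estrus or 2, 3 or 4 in diestrus). In FL1, *Adamts1*, *Vcan* and *Tnfaip6* passed with each library left out. *Tnfaip6* had too few counts for the filter of 10 counts in every library and missed the threshold in the fit of all 20 libraries (adjusted p = 0.0770).

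Libraries with the same replicate number are different animals, and the correlation of their deviations from the group means was -0.095 to 0.13, so the number is not a pairing. With the replicate block, 2 of the listed genes tested passed between the stages in ctrl, 3 in FL1 and 0 between the lines. Of all genes, 230 and 498 passed between the lines in estrus and diestrus, 259 and 2020 between the stages in ctrl and FL1 and 12 in the interaction. Counts of *Areg* and *Has2* were too low at this depth for any comparison, and those of *Ereg*, *Btc*, *Ptx3* and *Tnfaip6* (182 to 619 over 20 libraries) give wide intervals.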
